A study of Mus musculus with 13 samples.

Results

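Oligodendrocyte precursors made up 2707 of the 105427 nuclei retained from the hippocampi of 13 female mice, or 2.57%. A nucleus was retained with at least 500 detected genes and at most 5% mitochondrial UMIs (unique molecular identifiers, each standing for 1 captured RNA molecule). It was taken as a precursor when it held at least 1 UMI of Pdgfra, at least 3 of the 6 markers Pdgfra, Cspg4, Vcan, Lhfpl3, C1ql1 and Cacng4, at least 15 summed marker UMIs per 10000 UMIs, and fewer than 2 UMIs of the GABA synthesis genes Gad1 and Gad2 together. The nuclei were thus chosen by the measured counts of these genes, so their levels are given below as description and not as a result.

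Oligodendrocyte precursors are glia that keep a capacity to divide in the adult brain and give rise to the oligodendrocytes that form myelin. They receive synaptic input from neurons through glutamate and GABA receptors, and platelet-derived growth factor acting on Pdgfra drives their division and survival. The transcription factors Olig1, Olig2 and Sox10 mark the lineage, Gpr17 and Bcas1 mark cells leaving the precursor state, and Myrf with the myelin genes marks the mature cell.

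The mice were C3B6F1 hybrids (written C3HB6F1 in the strain field of the labels), and RNA came from nuclei of whole frozen hippocampus that had been stained with Hoechst and sorted. There were 3 young mice of 5 months and 3 old mice of 24 months, both fed ad libitum. A further 3 old mice of 24 months had been on dietary restriction since 20 months of age (acute restriction), and 4 old mice of 24 months had been restricted since 5 months of age (long-term restriction). Each mouse gave 1 library, and both restriction contrasts and the ageing contrast used the same 3 old ad libitum mice. The replicate numbers of the old ad libitum mice were 1, 2 and 4 in the labels.

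Libraries held between 38546292 and 80538090 UMIs and between 122 and 334 precursors. The precursors of 1 mouse summed to between 480802 and 1553076 UMIs. No barcode sequence of a precursor occurred in more than 1 library. The 4 libraries numbered 1, 1 in each group, stood apart in holding 45, 102, 112 and 139 mature oligodendrocytes, against 443 to 1332 in the other 9 libraries. Counts of called genes and shares of nuclei were repeated without these 4 libraries. The barcodes of highest doublet score were marked in each library, to a number preset from its count of barcodes. This marked 337 precursors (12.4%) and 7.01% of all retained barcodes, so the latter share is a setting. Marked nuclei were kept. Counts of genes called in precursors were repeated without them. Differences between classes and calls in the other classes were not.

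Genes that the rule did not use matched the label. Olig1 and Olig2, the basic helix-loop-helix factors of the oligodendrocyte lineage, were detected in 42.0% and 35.5% of precursors, at 37.2 and 56.7 times their level in all other nuclei, both in CPM (UMIs of a gene over all UMIs of the class, scaled to a fixed total). Sox10, the lineage factor shared by precursors and oligodendrocytes, was detected in 63.8% of precursors, and its median over mice of 242 CPM was close to the 278 in mature oligodendrocytes. Neu4, a sialidase, was detected in 47.2% at a fold of 125, Susd5 in 29.9% at a fold of 131, and Matn4, a matrix protein, in 65.2% at a fold of 29.6. The SoxD factors Sox5 and Sox6, which hold back differentiation in this lineage, were detected in 97.2% and 98.8%. All of these were above the other nuclei in 13 of 13 mice.

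Among 3483 genes at 50 CPM or more in precursors, 108 were at least 10-fold above all other nuclei, and 3 of the 10 highest folds belonged to genes of the rule. The rule's own genes had folds of 263 for Pdgfra, 115 for the proteoglycan Cspg4, 96.9 for C1ql1, 82.6 for Cacng4, 64.3 for the proteoglycan Vcan and 53.3 for Lhfpl3. Receptors and signalling genes at higher levels in precursors included Sema3d, a secreted guidance cue, at a fold of 27.7, the potassium channel gene Kcnh8 at 27.0, Notch1 at 11.3, the NMDA receptor subunit Grin3a at 6.91, the neuregulin receptors Erbb3 at 6.51 and Erbb4 at 3.50, and the AMPA receptor subunit Gria4 at 2.26. These folds describe the nuclei the rule chose and carry no test.

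**Figure D1:**
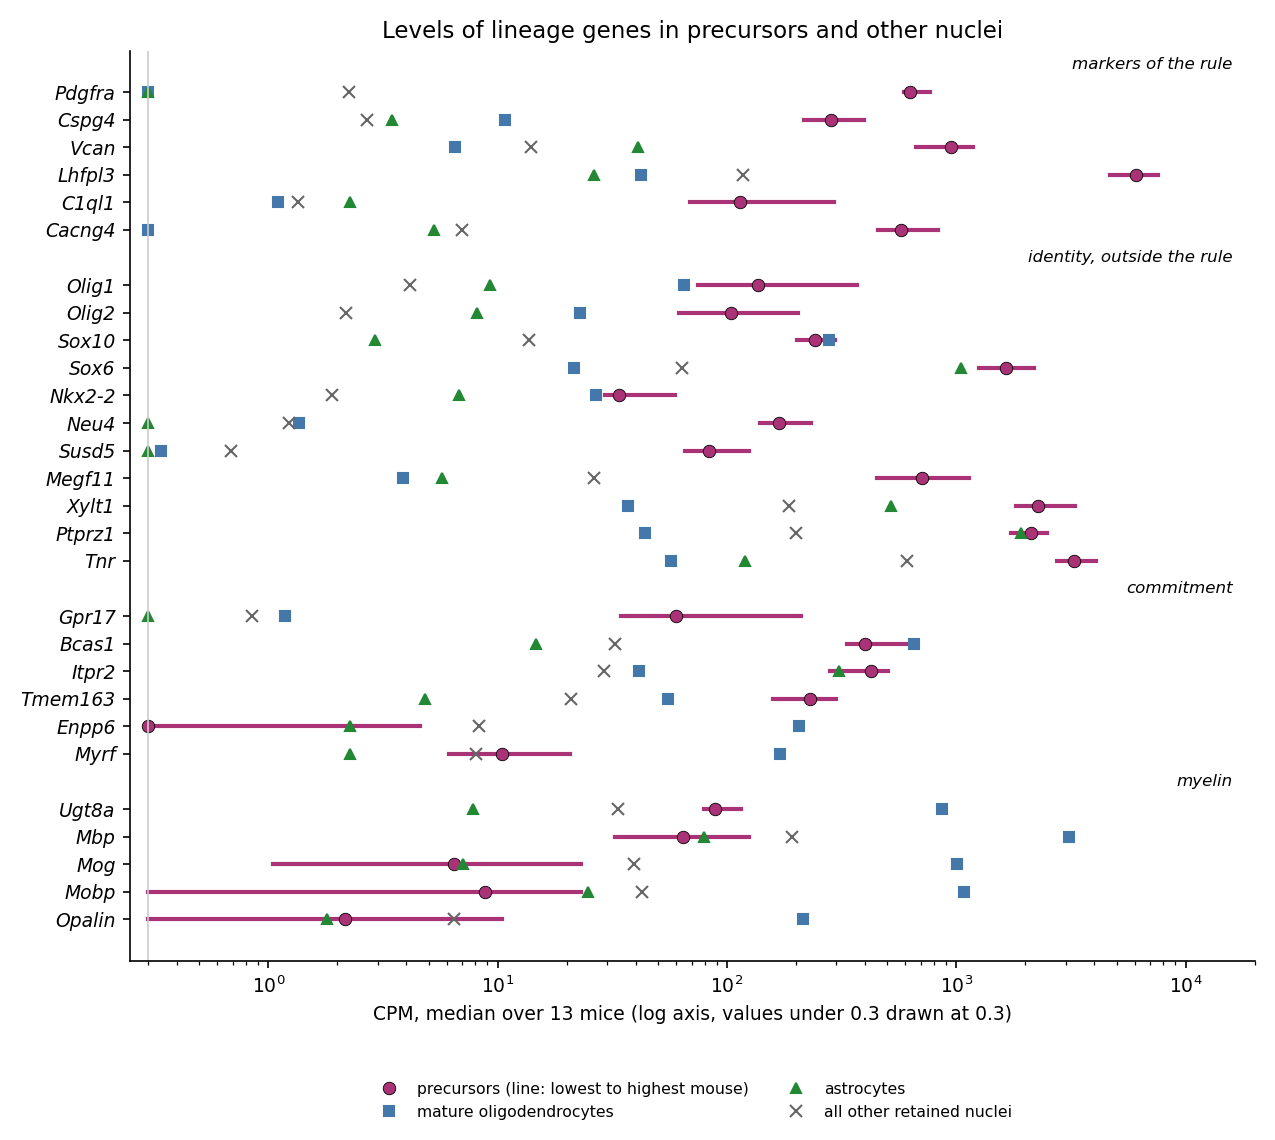
Level of lineage genes in CPM (log axis) in precursors, mature oligodendrocytes, astrocytes and all other nuclei, as the median over 13 mice, with a line from the lowest to the highest mouse for precursors and values under 0.3 drawn at 0.3. Neu4 and Susd5 are high in precursors alone among the classes drawn. Pdgfra is high there by the rules, which asked for at least 1 UMI in precursors and 0 in oligodendrocytes and astrocytes. Sox10 is at a like level in precursors and oligodendrocytes, and Enpp6, Mog and Opalin are high in oligodendrocytes.

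Genes of commitment were split. Gpr17, a receptor of cells about to differentiate, was detected in 22.9% of precursors (fold 79.4), Bcas1 in 73.4% (13.6), and the calcium release channel gene Itpr2 in 77.8% (12.4). Enpp6, a marker of newly formed oligodendrocytes, was detected in 0.33% of precursors and was below the other nuclei in all 13 mice, and Myrf, the factor that turns on myelin genes, was detected in 4.73%. The myelin genes Mbp, Mog and Opalin were at 0.39, 0.281 and 0.397 times their level in the other nuclei. Only 10 precursors met the marker rule for mature oligodendrocytes.

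Genes of division were scarce. Mki67 and Top2a were each detected in 0.52% of precursors, and Cdk1 and Ccnb1 gave 0 UMIs in 2707 nuclei, which allows a share of up to 0.111% of nuclei with a UMI by counting error alone. Ccnd1, the cyclin of entry into the cycle, was detected in 19.4% at a fold of 6.87.

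RNA of other cells was present in the gate. The 10 listed neuronal markers summed to between 1276 and 2212 CPM, against 4841 to 6883 in all other nuclei, and 670 precursors (24.8%) held at least 2 of the neuronal genes Rbfox3, Slc17a7, Prox1 and Snap25. Summed astrocyte markers were at 703 to 1173 and oligodendrocyte markers at 89.3 to 366 CPM. Microglial markers were at 52.3 to 275 in young mice and 43.1 to 60.5 in old ad libitum mice. In none of the lists of other cell types did a gene pass the test in any contrast. Tested were 9 neuronal, 7 astrocyte, 5 oligodendrocyte, 3 microglial, 1 vascular and 1 fibroblast gene. Over all tested genes 1.03% passed in ageing and at most 0.02% in the other contrasts, so nothing is read from the 0. Of 9 neuronal genes tested, 0 had a positive difference in ageing, with a median log2 change of -0.25. Under acute restriction 7 were positive (median 0.25), and under long-term restriction 2 were (median -0.07). In ageing 2 of 3 microglial genes tested fell in a fit with a term for the libraries numbered 1, where 342 of 9980 did. The part of this RNA in the results below was not tested beyond a purer gate of 2012 nuclei. That gate left out nuclei with at least 2 of the 4 neuronal genes or at least 2 fibroblast genes. It also left out nuclei that met the marker rule for mature oligodendrocytes or astrocytes. No microglial or vascular gene was used in it.

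At the edge of the rule, 158 precursors (5.84%) had 3 markers, 724 had 4, 1278 had 5 and 547 had all 6. Precursors with 15 to 20 marker UMIs per 10000 numbered 45, and 22 nuclei just outside the rule had 10 to 15. The median precursor held 103 per 10000.

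Precursors were a larger share of nuclei in every old ad libitum mouse than in every young one. In young mice the share was 1.72% (95% exact binomial interval 1.45 to 2.02), 1.79% (1.54 to 2.07) and 1.87% (1.58 to 2.19). In old ad libitum mice it was 3.47% (2.89 to 4.13), 3.32% (2.98 to 3.69) and 4.66% (4.17 to 5.20). The intervals cover counting error only, and the 2 groups did not overlap. The odds were 2.15 times higher in the old mice, a log2 difference of 1.10. The exact two-sided permutation p was 0.1, the smallest that 3 mice against 3 allow, and 0.152 after adjustment over the 4 contrasts.

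Under acute restriction the share was 2.35%, 2.46% and 2.69%, below all old ad libitum mice. Its log2 odds differed by -0.61 from old ad libitum, 0.653 times the odds (exact permutation p = 0.1, adjusted 0.152). Under long-term restriction 3 mice lay at 2.22%, 2.37% and 2.18% and the mouse numbered 3 at 3.72% (3.18 to 4.32), which overlapped the old ad libitum mice (log2 difference -0.58, exact permutation p = 0.114, adjusted 0.152). Without that mouse the log2 difference was -0.77 and the groups did not overlap. Long-term and acute restriction differed by 0.03 (exact permutation p = 0.971), and no contrast of the share passed after adjustment. Without the libraries numbered 1 the 4 differences were 1.14, -0.63, -0.57 and 0.06 in the order given.

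The pattern depended on the denominator. As a share of precursors, mature oligodendrocytes and astrocytes together, young mice had 16.9% ± 5.22 (SD, n = 3). Old ad libitum mice had 17.9% ± 5.95 (n = 3), a log2 difference of 0.090 (exact permutation p = 0.7). Acute and long-term restriction gave 17.1% ± 7.30 (n = 3) and 14.2% ± 5.01 (n = 4). Depth moved with age as well: the median precursor held 2955.5, 2122 and 3115 UMIs in the young mice against 6250, 3621 and 4068 in old ad libitum ones. With barcodes under 2000 UMIs left out and the others thinned to 2000 UMIs before the rule was applied, the ageing difference was 1.44. Leaving out such barcodes removed 6, 77 and 10 precursors of the young mice and 1, 6 and 1 of the old ad libitum mice. The part of this removal in the value of 1.44 was not tested. Shares of nuclei cannot tell more precursors apart from fewer captured nuclei of other kinds.

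**Figure D2:**
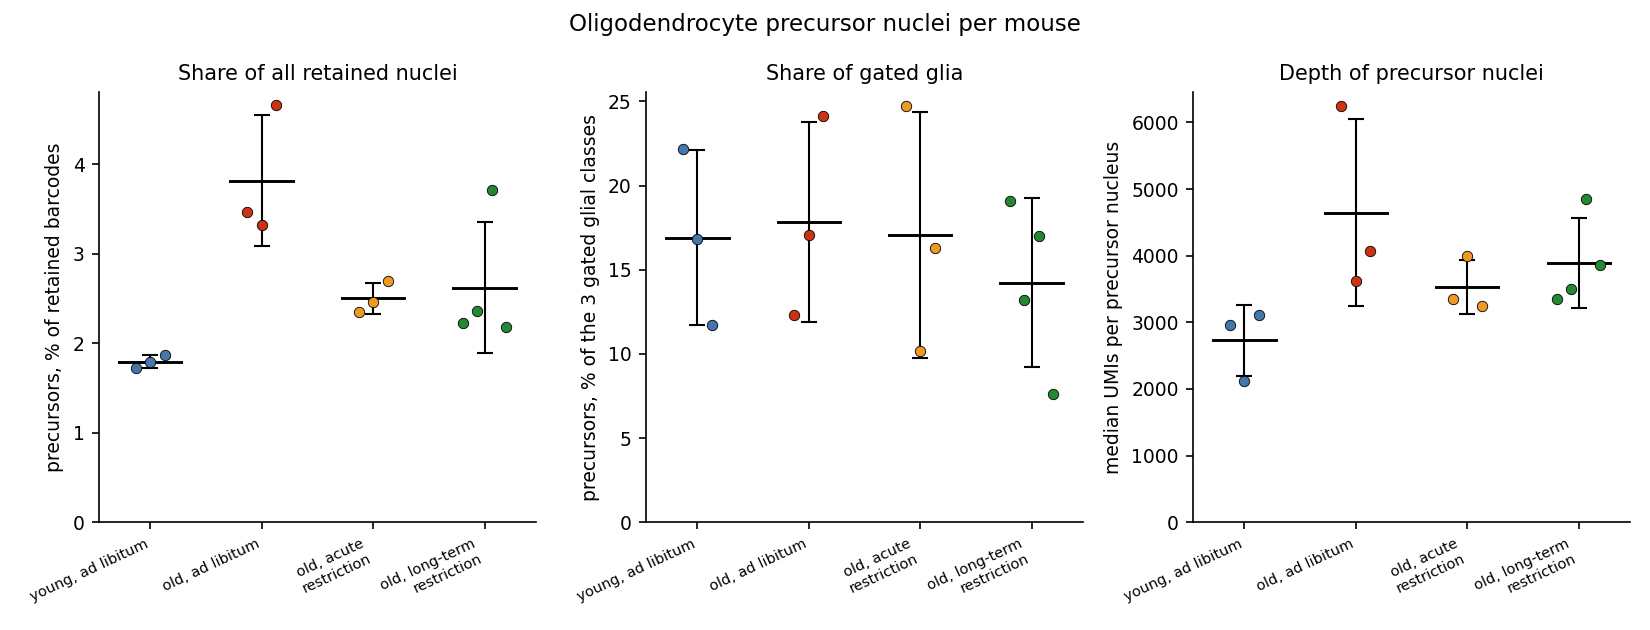
Precursors per mouse as a percent of retained barcodes, as a percent of 3 glial classes, and their median UMIs per nucleus, by group (points are mice, the line is the mean and the bar is 1 SD). The old ad libitum mice, from 3.32% to 4.66%, sit above the young ones, at 1.72% to 1.87%, in the first panel, and the groups overlap in the second.

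The share of nuclei carrying genes of commitment did not differ between groups by test. The share with at least 2 commitment genes was taken over precursors of at least 2000 UMIs, each thinned to 2000 UMIs. It was 56.8% ± 11.6 in young mice (n = 3), 56.0% ± 0.907 in old ad libitum mice (n = 3), 54.9% ± 4.00 under acute (n = 3) and 55.1% ± 4.99 under long-term restriction (n = 4). All adjusted exact permutation p were 1. The differences were -0.88 percentage points in ageing, -0.82 under long-term and -1.09 under acute restriction and 0.27 between the restrictions, and 1.87, 1.27, -2.79 and 4.06 without the libraries numbered 1. This measure is not specific, since mature oligodendrocytes had group means of 31.0% to 34.5% and astrocytes of 2.19% to 3.79%. Before thinning the shares were 74.0%, 88.4%, 83.9% and 83.3%, lowest in the young mice, whose nuclei were the shallowest.

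The share with at least 2 proliferation genes was 6.54% ± 2.53 in young mice (n = 3), 7.95% ± 2.26 in old ad libitum mice (n = 3), 3.56% ± 0.25 under acute restriction (n = 3) and 5.30% ± 1.43 under long-term restriction (n = 4). The acute mice, at 3.37% to 3.85%, lay below the old ad libitum mice, at 5.49% to 9.92%. The difference of -4.39 percentage points had an exact permutation p of 0.1 and an adjusted p of 0.381. The long-term mice, at 3.72% to 7.17%, overlapped the old ad libitum mice (-2.65 points, exact permutation p = 0.143, adjusted 0.381). Counting nuclei with at least 1 proliferation gene, both restricted groups lay below all old ad libitum mice, long-term mice at 27.1% to 33.2% and acute mice at 28.5% to 34.1% against 35.1% to 40.5%, with long-term and acute differences of -7.75 and -6.50 points (exact permutation p = 0.0286 and 0.1, not adjusted). In astrocytes the share with at least 2 proliferation genes was 4% to 4.37% in old ad libitum mice, above all acute (2.30% to 3.96%) and all long-term mice (1.75% to 3.64%). The 4% was 3 of 75 nuclei in old ad libitum mouse 4. With at least 1 gene astrocytes were at 33.1% to 40% in old ad libitum mice, above the acute mice (29.6% to 31.2%) and overlapping the long-term ones (25.2% to 33.3%). Lower shares under acute restriction were thus seen in astrocytes too, and the difference between the classes was not tested. Mature oligodendrocytes held 0% to 3.06% with at least 2 genes, below every acute value in precursors. The acute difference was -3.54 points without the libraries numbered 1. Unthinned shares were 12.9%, 22.8%, 11.97% and 15.1%.

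Ageing changed 103 of 9980 tested genes in precursors, 1.03% of those tested, in edgeR's quasi-likelihood test at a Benjamini-Hochberg adjusted p below 0.05. Old mice were higher for 62 genes (0.621%) and lower for 41 (0.411%). In that test 1692 genes (17.0%) were at an unadjusted p below 0.05. The genes that rose changed by 0.47 to 2.03 on the log2 scale with a median of 0.65, and those that fell by -3.67 to -0.68 with a median of -1.23. The values of old and young mice did not overlap for 101 of the 103, against 20.8% of all tested genes. The genes named next were taken from those without overlap, so their separation of old and young mice comes from that choice. Since the labels do not say that a mouse stands for a separate cage or day, p-values measure the spread between these mice.

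Ebf1, a helix-loop-helix transcription factor gene (chromosome 11, 44617317 to 45008091, plus strand, GRCm38), had log2 CPM of 5.46, 4.59 and 5.56 in the young mice against 6.92, 6.60 and 6.78 in old ad libitum ones. Every old mouse was above every young one. It rose by 1.53 (SE 0.22, adjusted p = 0.00127) and by 1.56 without the libraries numbered 1. Restricted mice also lay above the young ones, with 6.95, 7.09 and 6.79 under acute and 6.78, 6.59, 7.10 and 7.13 under long-term restriction. Ebf1 was too low to be tested in mature oligodendrocytes, and astrocytes differed by 0.16 (SE 0.92, adjusted p = 0.993). With an SE that wide, this value does not show whether astrocytes changed. The changes in precursors and astrocytes differed by 1.24 (SE 1.15, adjusted p = 0.968). Ebf1 and Cdh18 were among 8 listed genes chosen with earlier results of these data known, so their call is not independent evidence. The other 6 did not pass in ageing.

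Cdh18, a cadherin of cell adhesion (chromosome 15, 22549022 to 23474418), was at 8.33, 8.25 and 8.44 in young and 9.38, 9.01 and 9.26 in old ad libitum mice. It rose by 0.88 (SE 0.13, adjusted p = 0.00127). The restricted groups lay near the old values, at 8.91 to 9.31 under acute and 9.26 to 9.47 under long-term restriction. In mature oligodendrocytes the ageing difference of Cdh18 was 0.01, but the test of the difference between the classes did not pass (adjusted p = 0.603).

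Sorcs3 and Sorcs1, sorting receptors of the same family, lie on chromosome 19 and rose together. Sorcs3 was at 8.79, 8.88 and 8.78 in young and 9.51, 9.52 and 9.54 in old ad libitum mice (0.71, SE 0.11, adjusted p = 0.00159). Long-term restricted mice were at 9.23 to 9.26 and acutely restricted mice at 9.31 to 9.51, between the young and old ad libitum mice or at the lowest old value, and neither contrast passed for Sorcs3. Sorcs1 was at 9.27, 9.23 and 9.48 in young and 10.01, 9.87 and 10.00 in old ad libitum mice (0.63, SE 0.12, adjusted p = 0.0179). Both genes also rose in mature oligodendrocytes, by 0.75 each (adjusted p = 0.03 for Sorcs3 and 0.00387 for Sorcs1).

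Adra1a, an adrenergic receptor gene, was at 5.34, 5.86 and 6.41 in young and 7.30, 6.70 and 6.83 in old ad libitum mice (1.04, SE 0.21, adjusted p = 0.0196). The Adra1a difference was 0.60 without the libraries numbered 1 and no longer passed (adjusted p = 0.121). Kcnq5, a voltage-gated potassium channel gene, was at 9.07, 8.94 and 9.01 in young and 9.78, 9.53 and 9.72 in old mice (0.68, SE 0.14, adjusted p = 0.0179). By the naming rule neither gene's young mice reached an old ad libitum mouse. Rora, a nuclear receptor that also acts in the circadian clock, went from 10.69 to 10.85 in young mice to 11.32 to 11.34 in old ones (0.58, SE 0.12, adjusted p = 0.0179).

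Other named genes that rose were Tead1, a transcription factor of the Hippo pathway (0.82, 0.0271), Sh3rf1, a scaffold and ubiquitin ligase (0.81, 0.0176), Lrmda (0.79, 0.0179) and Fign, a microtubule-severing enzyme (0.64, 0.0179). Lrmda also rose in mature oligodendrocytes (0.94, adjusted p = 0.00474) and in astrocytes (1.05, adjusted p = 0.0215).

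Among genes that fell, Mettl23, a methyltransferase gene (chromosome 11, 116843278 to 116854263), was at 6.65, 7.02 and 6.70 in young and 5.57, 5.17 and 5.68 in old ad libitum mice. It fell by 1.36 (log2 change -1.36, SE 0.21, adjusted p = 0.00127), and no old mouse, restricted or not, reached a young one. Manf, a secreted protein of the endoplasmic reticulum stress response, was at 6.55, 7.04 and 6.77 in young and 5.79, 5.58 and 5.79 in old ad libitum mice (-1.11, SE 0.21, adjusted p = 0.015). Acutely restricted mice were at 5.76, 6.70 and 6.17 for Manf, and long-term restricted mice at 6.13 to 6.47. Mettl23 and Manf also fell in mature oligodendrocytes, by -1.42 (adjusted p = 0.0136) and -1.21 (adjusted p = 0.0121).

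Flrt3 and Olfm3, genes of a membrane and a secreted protein that act between neural cells, also fell. Flrt3 was at 6.14, 7.11 and 6.60 in young and 5.22, 5.27 and 5.19 in old ad libitum mice (-1.48, SE 0.23, adjusted p = 0.00144). Olfm3 was at 7.06, 6.73 and 6.29 in young and 4.87, 5.25 and 5.51 in old mice (-1.52, SE 0.25, adjusted p = 0.00543). In the purer gate Olfm3 was at -0.87 (adjusted p = 0.136), and after thinning at -0.90. Flrt3 lies opposite Macrod2 and Mettl23 overlaps Srsf2, Mfsd11 and Jmjd6, and the use of strand in counting is not given in the sources used here, so reads of such neighbours may be shared.

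Cox7c, a subunit of cytochrome c oxidase, was at 6.30, 6.86 and 6.05 in young and 5.67, 4.94 and 5.11 in old ad libitum mice (-1.24, SE 0.25, adjusted p = 0.0179). Tmem126a, a mitochondrial inner membrane protein, fell by 1.08 (log2 change -1.08, adjusted p = 0.0179). The start factor of translation Eif1 (-1.14), the autophagy gene Gabarapl2 (-1.04), the ubiquitin-like Ubl5 (-1.81), Eid1 (-1.08), Mllt11 (-1.23) and Ccdc7b (-2.18) fell with adjusted p of 0.0253 to 0.0367. The purer gate also gave 103 ageing calls, over 7970 tested genes. Of the 103 calls reported here, 98 had a value in that gate and 42 passed there. In the purer gate Sh3rf1 (adjusted p = 0.0663), Fign (0.123), Kcnq5 (0.0719), Mllt11 (0.0663), Ubl5 (0.153) and Gabarapl2 (0.0981) did not pass. Mllt11 did not pass without the libraries numbered 1 (-1.02, adjusted p = 0.0673).

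Over the 62 genes that rose, the median difference from young was 0.66 in old ad libitum, 0.61 in acutely restricted and 0.56 in long-term restricted mice. Over the 41 that fell it was -1.16, -0.72 and -0.81. The old ad libitum mice chose these genes, so all 3 values are given as description.

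**Figure D3:**
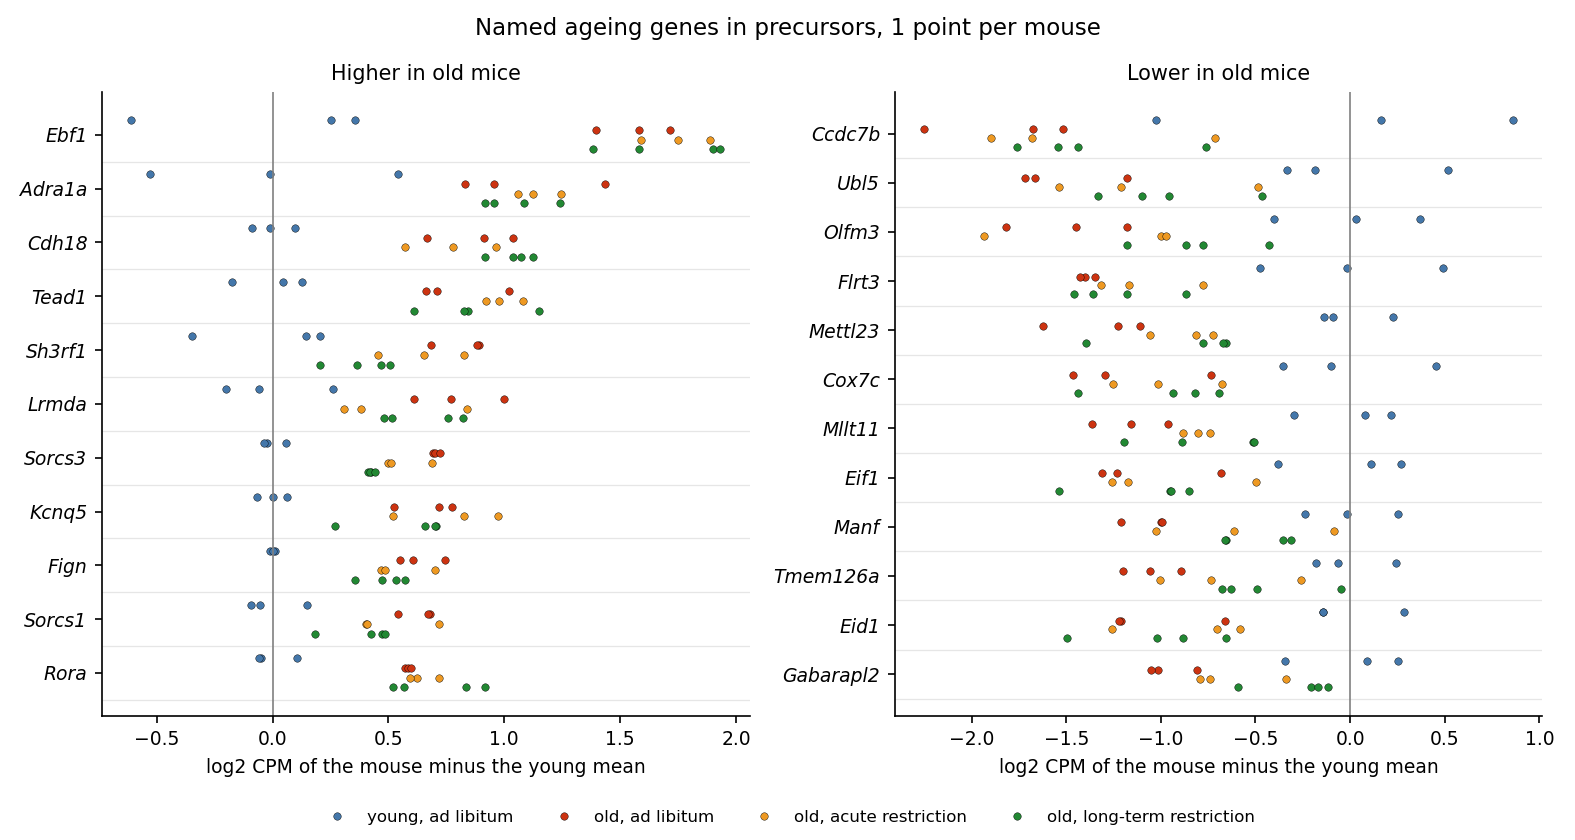
Log2 CPM of each mouse minus the young mean for 11 of the 12 named genes that rose and the 12 that fell with age, in 4 groups of mice. Points of the 3 old groups lie to the same side of 0 for genes such as Ebf1, Cdh18, Mettl23 and Cox7c.

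None of these 24 genes passed a test of the difference between its change in precursors and in mature oligodendrocytes or astrocytes, where 0.145% and 0.00856% of all genes tested did, so nothing is read from the 0. The lowest adjusted p of those tests was 0.115 against oligodendrocytes and 0.616 against astrocytes. Of the 22 that could be tested in oligodendrocytes alone, 9 passed there, where 193 genes rose and 306 fell of 11103 tested. In astrocytes 1 of 24 passed, where 7 rose and 3 fell of 12029.

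Transcribed length moved with the ageing changes. The genes that rose spanned a median of 305 kb and those that fell 18.6 kb, against 36.2 kb for all tested genes. Over all tested genes split by span into 4 bins of like size, the median ageing difference was -0.33, -0.08, 0.05 and 0.20 from the shortest to the longest bin, and 57 of the 62 genes that rose were in the longest. For the restriction contrasts from old ad libitum the medians of the bins lay between -0.02 and 0.01. The log2 ratio of long to short genes per mouse was 1.91, 2.03 and 2.32 in young and 2.46, 2.60 and 2.51 in old ad libitum mice (difference 0.44, exact permutation p = 0.1, adjusted 0.4).

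**Figure D4:**
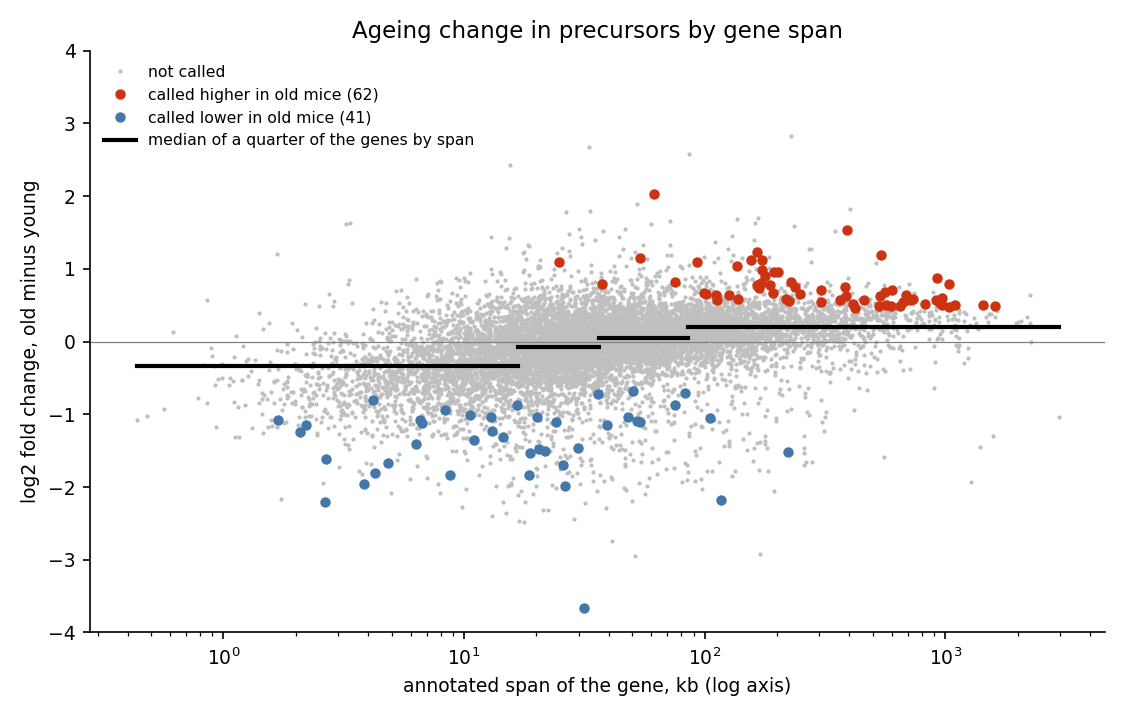
Ageing log2 fold change in precursors against gene span in kb (log axis) for all tested genes, with the 62 that rose in red, the 41 that fell in blue and black bars for the median of each of 4 span bins. The bars climb from -0.33 for the shortest to 0.20 for the longest bin.

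With the trend over span removed, 6 genes passed: Ebf1 (1.29) and a gene with a Rik symbol (0.93) rose, and Flrt3 (-1.39), Olfm3 (-1.74), Manf (-1.17) and Mettl23 (-1.14) fell. In that fit the change was smaller by over 1.5 times, and did not pass, for Sorcs3 (0.44), Sorcs1 (0.37), Rora (0.31), Lrmda (0.51), Kcnq5 (0.41), Cox7c (-0.73), Eid1 (-0.54) and Eif1 (-0.62). With the median UMIs per precursor as a covariate, no gene passed and 587 of 9980 were at an unadjusted p below 0.05 by edgeR, against 1692 without it. All 103 kept their direction, and their median absolute log2 change was 0.78 against 0.87 without the covariate. Sorcs3 was at 0.76 (adjusted p = 0.628) and Tead1 at 0.88 (adjusted p = 0.802). Depth was lower in all young mice than in all old ad libitum mice, so the 2 cannot be told apart by a test here. Thinning each precursor to 2000 UMIs left 88 calls, of which 45 were among the 103. Among the named genes Sorcs1 (0.45, adjusted p = 0.0525), Fign (0.43, adjusted p = 0.124) and Olfm3 (-0.90, adjusted p = 0.151) did not pass after thinning. Ubl5 had no value in that fit.

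Without the 4 libraries numbered 1 there were 436 calls, 76 higher and 360 lower, of which 71 were among the 103. The share of calls that were higher was 60.2% with all mice and 17.4% without these libraries. A fit with a term for those libraries gave 568 calls, 39.8% higher, including all 103. Of the 24 named ageing changes, 22 passed without the libraries numbered 1. Leaving out 1 mouse at a time gave 7 to 299 calls: 299 without young mouse 1, 9 without young mouse 2, 46 without young mouse 3, 24, 16 and 7 without old ad libitum mouse 1, 2 and 4, and 175 without acute mouse 1.

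The counts of list members that passed in ageing stand beside 1.03% of all tested genes, and with so few members nothing is read from their shares. Of 20 precursor identity genes outside the rule, all tested, Sox5 rose, from 9.84 to 10.05 in young mice to 10.40 to 10.54 in old ad libitum mice (0.53, SE 0.12, adjusted p = 0.0338), and 19 did not pass. Lhfpl3, a gene of the rule, also passed (0.48, adjusted p = 0.047), which is description only. Sox10 was at 8.20, 8.08 and 7.80 in young and 7.74, 7.97 and 7.95 in old mice (-0.14, adjusted p = 0.639). Olig1 was at 8.51, 6.95 and 7.20 in young and 7.51, 6.53 and 7.17 in old mice (-0.65, adjusted p = 0.603), and the library numbered 1 had the highest Olig1 value in each of the 4 groups.

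Of 15 commitment genes tested of 17 listed, Tcf7l2, a Wnt pathway transcription factor needed for differentiation, rose from 6.83, 6.73 and 7.06 to 7.48, 7.56 and 7.58 (0.67, SE 0.14, adjusted p = 0.0294). Gpr17 was at 7.72, 6.49 and 6.41 in young and 6.76, 5.37 and 6.33 in old mice, and restricted mice were at 5.25 to 6.08. The Gpr17 ageing difference of -0.81 did not pass (SE 0.42, adjusted p = 0.358), and neither did Bcas1 (-0.07, adjusted p = 0.89). None of the 10 myelin genes, 4 proliferation genes, 12 cell cycle regulators or 17 growth factor receptors tested passed. With a term for the libraries numbered 1, 4 growth factor receptors rose and 1 cell cycle regulator rose and 1 fell. That fit called 226 of all 9980 tested genes higher and 342 lower, and nothing is read from its list counts. In that fit 4 identity genes rose, and 2 commitment genes rose and 1 fell.

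Receptors and channels were mostly on the higher side in old mice. Of 33 neurotransmitter receptor genes tested, 25 had a positive ageing difference with a median of 0.18, and Gabrg3 and Adra1a rose. Of 27 tested genes of the ion channel list 21 were positive with a median of 0.20, and Kcnq5 and Tmem132d (0.48, adjusted p = 0.0457) rose. Tmem132d is a transmembrane protein gene in that list and not a channel gene. Of 37 axon guidance and adhesion genes 26 were positive with a median of 0.23, and Cdh18 and Nrxn3 (0.50, adjusted p = 0.0442) rose. The median over all tested genes was -0.01, and with the span trend removed the medians of these lists were 0.02, 0.02 and -0.05. The members that rose numbered 5, 4 and 9 in the fit with a term for the libraries numbered 1. In that fit 226 of all 9980 tested genes rose.

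Gabrg3, a GABA-A receptor subunit gene, was at 8.78, 8.63 and 8.68 in young and 9.28, 9.11 and 9.33 in old ad libitum mice (0.54, SE 0.12, adjusted p = 0.0338). Under acute restriction it was at 8.59, 8.78 and 8.72 and under long-term restriction at 8.77, 8.58, 8.87 and 8.76, all below each old ad libitum mouse. Over all tested genes 11.9% had no overlap in the acute and 6.34% in the long-term contrast. The Gabrg3 differences of -0.54 and -0.49 did not pass over all genes (adjusted p = 0.122 and 0.229). For Gabrg3 the acute difference passed in 3 of 14 other settings (DESeq2, adjusted p = 0.041; a term for number 1, 0.0471; the span trend removed) and in 0 of 13 fits that left out a mouse. All contrasts used the same old ad libitum mice. Ndst3, a heparan sulfate modifying enzyme and 1 of 24 matrix genes tested, was at 5.28, 4.81 and 5.50 in young and 6.60, 6.55 and 6.09 in old mice (1.23, SE 0.28, adjusted p = 0.0398).

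Nuclear genes of oxidative phosphorylation had a median of -0.53 over 27 tested genes, of which 4 were positive and Cox7c passed. The median was -0.16 with the span trend removed, and 5 members fell in the fit with a term for the libraries numbered 1. Over all 9980 tested genes that fit called 226 higher and 342 lower. Insulin and nutrient signalling had 22 of 26 positive with a median of 0.19, or 0.12 with the span trend removed, and no call. No gene passed among 20 glucocorticoid and fasting genes, 14 sterol genes or 10 interferon and reactive genes tested, and Rora was the call among 15 clock genes. With that term 2 insulin and nutrient genes and 2 clock genes rose, and 1 interferon and reactive gene rose and 1 fell.

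By edgeR long-term restriction changed 2 genes in precursors, 0.02% of those tested, and DESeq2 gave 3 calls. In the edgeR test 499 genes (5%) were at an unadjusted p below 0.05, the share that this cutoff gives where nothing changes. Both genes called by edgeR were higher. Both belonged to a list chosen with earlier results of these data known, so their call is not independent evidence. Without the libraries numbered 1 there were 6 calls. Leaving out 1 mouse at a time gave 0 to 3.

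Pou3f1, a POU domain transcription factor of the Oct-6 type (chromosome 4, 124656807 to 124660655, plus strand), was at 5.17, 5.68 and 5.22 in old ad libitum mice and 6.42, 6.66, 6.48 and 6.47 under long-term restriction. The 4 restricted mice lay above all 3 ad libitum mice, and 6.34% of all tested genes had no overlap in this contrast. Pou3f1 rose by 1.16 (SE 0.19, adjusted p = 0.0111), and by 1.11 without the libraries numbered 1 (adjusted p = 0.0136). Acutely restricted mice were also high, at 6.71, 6.15 and 6.20, but that difference of 1.01 did not pass (SE 0.20, adjusted p = 0.0862). Young mice were at 6.30, 5.53 and 5.89 and overlapped the old ad libitum mice, and the ageing difference was -0.58 (adjusted p = 0.187).

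The Pou3f1 change differed from that in mature oligodendrocytes. Oligodendrocytes were at 5.14, 5.26 and 4.85 in old ad libitum mice and 5.64, 5.10, 4.88 and 4.92 under long-term restriction, which overlap. The difference of the changes was 1.18 (adjusted p = 0.0198). Against astrocytes, where Pou3f1 was low, it was 2.15 and did not pass (adjusted p = 0.324). Pou3f1 passed in 14 of 14 other settings of the analysis and in 8 of 13 fits that left out a mouse. It was lost without old ad libitum mouse 1 or 4 or long-term mouse 2, 3 or 4 (adjusted p of 0.051 to 0.372).

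Rph3a, rabphilin, an effector of vesicle release (chromosome 5, 120940499 to 121010092, minus strand), was at 6.65, 6.41 and 6.41 in old ad libitum mice and 7.16, 7.22, 7.63 and 7.49 under long-term restriction. The groups did not overlap, which held for 6.34% of all tested genes. It rose by 0.92 (SE 0.15, adjusted p = 0.0111), and by 1.07 without the libraries numbered 1 (adjusted p = 0.00419). Acutely restricted mice were at 6.63, 6.78 and 6.86, below every long-term mouse, and the young mice at 6.50 or lower. Long-term and acute mice did not overlap for 5.59% of all tested genes. Rph3a passed in 14 of 14 other settings and in 9 of 13 fits that left out a mouse, and was lost without old ad libitum mouse 2 or 4 or long-term mouse 3 or 4. Its change did not differ by test from that in oligodendrocytes (1.60, adjusted p = 0.129) or astrocytes (0.92, adjusted p = 0.823). Rph3a is also known as a neuronal gene, and precursors held 1.38 times its level in all other nuclei, being above them in 10 of 13 mice.

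Acute restriction changed 0 genes by edgeR's quasi-likelihood test at this threshold, 0% of those tested, with 534 (5.35%) at an unadjusted p below 0.05 and 4 calls by DESeq2. There were 47 calls without the libraries numbered 1, 15 with a term for them, 7 with a block for the replicate number and 0 to 4 without 1 mouse at a time. The genes named next were chosen after their values were seen. Gpd1, the cytosolic glycerol-3-phosphate dehydrogenase and a known glucocorticoid target in the oligodendrocyte lineage, was at 4.26, 4.18 and 4.30 in old ad libitum mice and 5.83, 5.49 and 5.27 under acute restriction (1.38, SE 0.26, adjusted p = 0.0569). Long-term restricted mice were at 5.20, 5.30, 4.58 and 4.73. Hif3a, a member of the hypoxia-inducible factor family, was at 2.97, 3.60 and 3.20 in old ad libitum and 4.19, 5.19 and 5.46 in acutely restricted mice (2.00, SE 0.40, adjusted p = 0.0862), from 5 to 15 and 13 to 56 UMIs per mouse. Neither gene's groups overlapped, which held for 11.9% of all tested genes in this contrast.

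Zfp934, a zinc finger gene, was on the lower side, at 6.58, 6.66 and 6.60 in old ad libitum and 5.69, 5.89 and 5.62 in acutely restricted mice (-0.92, SE 0.17, adjusted p = 0.0569). It passed in 12 of 14 other settings, Gpd1 in 7 of 14, Hif3a in 6 of 11 and Pou3f1 in 5 of 14. In the 13 fits that left out a mouse, Zfp934, Gpd1 and Hif3a passed in 3 each and Pou3f1 in 1. Of 20 glucocorticoid and fasting genes tested, 13 had a positive acute difference with a median of 0.13, against 0.00066 over all tested genes, and none passed. With a term for the libraries numbered 1, Hif3a of that list passed (2.01, adjusted p = 0.00816). The median of the 4 proliferation genes tested was -0.34 under acute and -0.43 under long-term restriction, with 0 of 4 positive in each and none past the test.

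**Figure D5:**
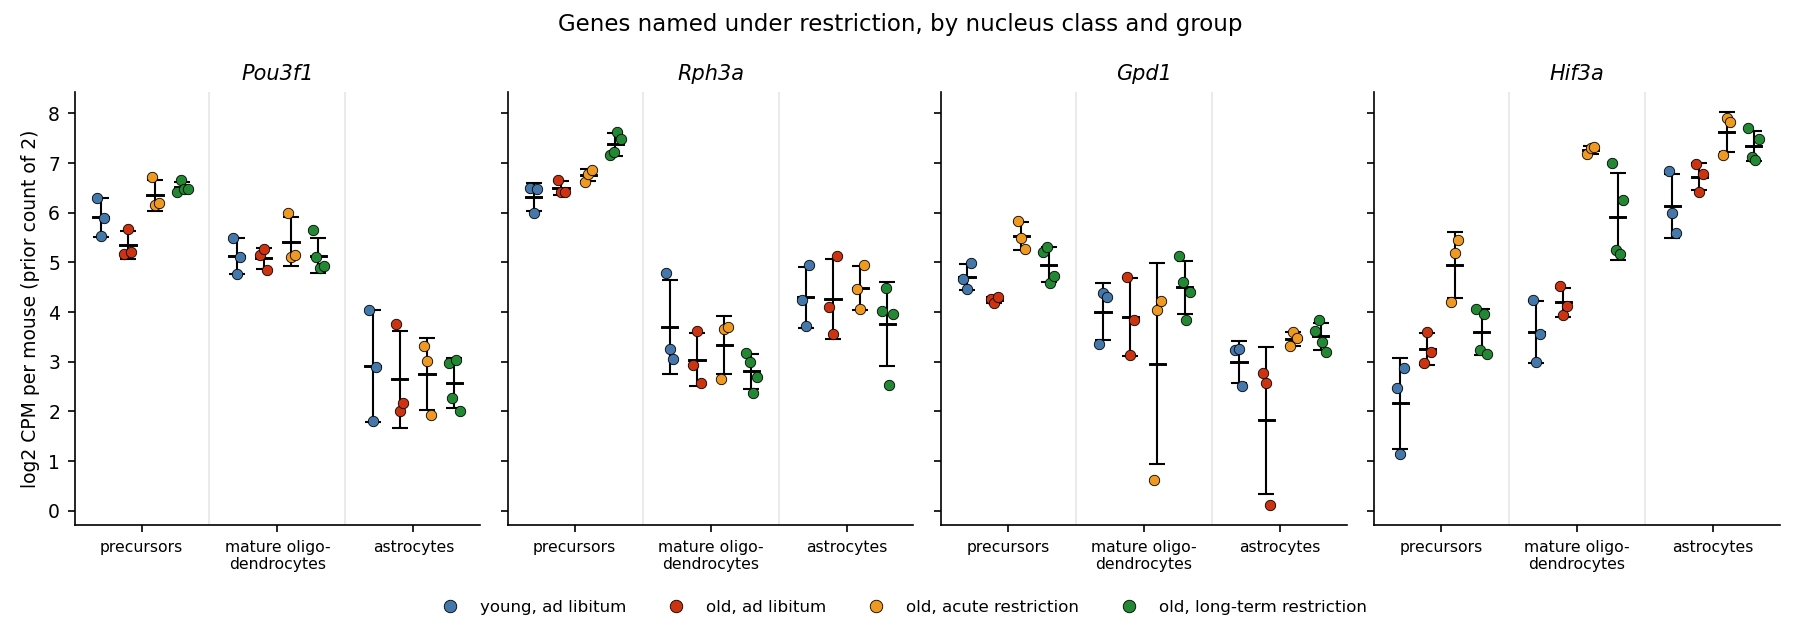
Log2 CPM of Pou3f1, Rph3a, Gpd1 and Hif3a per mouse in precursors, mature oligodendrocytes and astrocytes, by group (points are mice, with mean and SD). In precursors the 4 long-term mice lie above the 3 old ad libitum mice for Pou3f1 and Rph3a, and the oligodendrocyte values of Pou3f1 overlap between these groups.

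Long-term against acute restriction gave 0 calls by edgeR (0%), with 444 genes (4.45%) at an unadjusted p below 0.05 and 0 calls by DESeq2. Without the libraries numbered 1 there were 13. Rph3a differed by 0.63 (adjusted p = 0.477) and Hif3a by -1.56 (adjusted p = 0.477).

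Precursors and mature oligodendrocytes of the same mice differed in how they changed, in tests over 11001 genes with a term for each mouse. For acute restriction 48 genes differed (0.436%), of which 38 passed in oligodendrocytes alone and 0 in precursors alone. Dcc, the netrin receptor, fell in oligodendrocytes from 10.03, 9.62 and 9.67 to 8.33, 8.48 and 8.68, while precursors were at 11.25, 11.24 and 11.32 and then 11.50, 11.32 and 11.37. The changes of Dcc were -1.26 and 0.13 and differed by 1.38.

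Fkbp5, a glucocorticoid-induced chaperone, was at 5.82, 5.64 and 5.93 in precursors of old ad libitum mice and 5.95, 6.39 and 6.92 under acute restriction (0.73, adjusted p = 0.529). In oligodendrocytes it went from 6.11, 4.59 and 5.42 to 7.31, 7.55 and 7.96. The Fkbp5 changes differed by -1.71 and the precursor change was the smaller. Tmem132d (-0.06 in precursors, -1.29 in oligodendrocytes) and the phosphodiesterase Pde4d (0.02, -0.99) fell in oligodendrocytes and did not pass in precursors. Hif3a, which passed in oligodendrocytes at 3.32, did not differ by test (-1.24, adjusted p = 0.25).

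For long-term restriction 9 genes differed from oligodendrocytes (0.0818%), all with the higher change in precursors, and 5 of them passed in oligodendrocytes alone. Csmd2 differed by 1.10, with 0.12 in precursors and -0.98 in oligodendrocytes. The AMPA receptor subunit Gria4 differed by 0.85 and the mechanosensitive channel gene Piezo2 by 3.93. Pou3f1 was the gene among the 9 that passed in precursors alone. For long-term against acute restriction 2 genes differed (0.0182%), Cenpp by -1.46 and Spock3 by -1.25. Without the libraries numbered 1 the counts were 34 for acute restriction, 17 for long-term restriction and 8 for long-term against acute restriction.

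For ageing 16 genes differed from oligodendrocytes (0.145%), 9 of which passed in oligodendrocytes alone and 0 in precursors alone. Dgki, a diacylglycerol kinase, was at 8.69, 8.84 and 8.87 in young and 8.67, 8.88 and 8.68 in old precursors, while oligodendrocytes went from 9.37, 9.69 and 9.82 to 10.87, 10.76 and 10.95. The Dgki changes differed by -1.31. Sema3d, one of the genes high in precursors, was at 7.81 to 8.11 in young and 8.26 to 8.58 in old precursors (0.53, adjusted p = 0.0925) and fell in oligodendrocytes by 1.41 (log2 change -1.41). The guidance receptor Robo1 rose by 1.29 in oligodendrocytes, against 0.42 in precursors, a difference of -0.89.

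Against astrocytes, over 11679 genes, 1 gene differed in ageing (0.00856%), 4 under acute restriction (0.0342%) and 0 in the other contrasts by edgeR. The ageing gene was Kcnip1, a potassium channel partner, which rose in precursors (0.57, adjusted p = 0.0438). It was at 7.82 to 8.17 in young and 8.46 to 8.64 in old precursors, and in astrocytes it was close to the floor of detection. Without the libraries numbered 1 the counts were 2 for ageing, 1 for acute restriction, 2 for long-term restriction and 9 for long-term against acute restriction. With the same gates, the ageing calls of the 2 other classes were those given above; they do not rank the classes, since nuclei per mouse and depth differed between them.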

How the data were processed

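The deposited files were UMI count matrices per library, whole-number counts per gene and barcode that the authors made with Cell Ranger 4.0.0 on mm10, per the submitters' processing notes. Whether intronic reads and strand were used in counting, and whether doublets or free RNA were removed, is not given in the sources used here. The matrices held 105759 barcodes and 32285 gene IDs, of which 32235 matched GENCODE M21 (GRCm38), used for positions and spans.

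The members and gene lists were chosen with earlier results of these data known. Mature oligodendrocytes (Mog, Mag, Mobp, Ermn, Opalin, Cldn11) and astrocytes (Aqp4, Gja1, Slc39a12, Slc4a4, Gli3, Fgfr3) were taken by at least 3 markers, at least 15 marker UMIs per 10000, 0 UMIs of Pdgfra and fewer than 2 of Gad1 and Gad2. Counts were summed per mouse and class (at least 20 nuclei) and tested with edgeR 4.0.16 in R 4.3.3 (TMM factors, filterByExpr, robust quasi-likelihood fit over all 13 mice, Benjamini-Hochberg adjustment over all tested genes, threshold 0.05). Differences between classes were tested with a term per mouse. DESeq2 1.42.0 was an alternative. Log2 CPM used a prior count of 2. Shares used log2 odds and exact two-sided permutation tests. Doublet scores came from Scrublet in scanpy 1.11.5. The highest scores of each library were marked, 7386 barcodes in all, and removed only in an alternative. The share marked was preset to rise with the library's count of barcodes. Genes named were, per contrast, the 12 higher and 12 lower calls of smallest adjusted p whose mice did not overlap (all calls where there were 30 or fewer), Gm and Rik symbols aside, plus list members. A gene of this rule and a list member are not reported here. The fits were tested on simulated data. The alternatives were other factors, filters, gates, depth, span and doublet settings, a block for the replicate number, and leaving out each mouse.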

Additional observations from a re-analysis of the deposited data

Results flagged for a closer look

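In groups of 4 mice, 31 values were examined for a mouse far from the other 3, and 4 had one. Chance alone gives about 1 in 20 such groups. In the long-term restriction group, mouse 3 had a precursor share of 3.72%, against 2.18% to 2.37% in the others. The same mouse was lowest for Mettl23, at a log2 CPM of 5.39 against 6.01 to 6.13, and for Eif1, at 4.96 against 5.55 to 5.65. Long-term restricted mouse 4 was lowest for Kcnq5, at 9.28 against 9.66 to 9.71. The long-term change of Pou3f1 was larger in precursors than in mature oligodendrocytes by 1.18 on the log2 scale, by a test of the difference itself (edgeR, adjusted p = 0.0198).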

How the results depend on the processing

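The precursor share kept its direction in ageing and under both restrictions in all settings run. Of precursors, oligodendrocytes and astrocytes together, the log2 differences were 0.090 in ageing and -0.12 under acute restriction, and after thinning the ageing value was 1.44. Long-term against acute restriction had no direction: -0.30 among glia, -0.026 after thinning, -0.010 without acute mouse 1 and -0.15 without long-term mouse 3. Leaving out 1 mouse gave 0.95 to 1.20 in ageing, -0.77 to -0.42 under long-term and -0.71 to -0.46 under acute restriction, and -0.15 to 0.11 between the 2.

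Without thinning, the commitment share differed by 14.4 percentage points in ageing, -5.08 under long-term and -4.55 under acute restriction, and the proliferation share by 9.95, -7.69, -10.9 and, long-term against acute, 3.17. Counting nuclei with at least 1 proliferation gene gave -7.75, -6.50 and -1.25 for the last 3. Without 1 mouse at a time, commitment ranged over -7.52 to 3.30 in ageing, -2.28 to 1.57 under long-term restriction, -2.49 to 1.20 under acute restriction and -2.02 to 2.66 between them, and proliferation over -0.06 to 2.64, -3.88 to -1.67, -5.62 to -3.40 and 1.11 to 2.26.

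Calls in ageing, 103 in the fit reported, were 168 with DESeq2, 561 with no filter on low counts, 67 with a stricter filter, 568 with a term for number 1, 0 with depth as covariate, 6 with the span trend removed, 68 without doublets, 49 with only the 2 groups and 436 without the libraries numbered 1. Higher calls were 60.2% of the 103, but 50.0% with DESeq2, 41.8% with the stricter filter, 47.1% without doublets, 42.7% in the purer gate and 38.6% after thinning. Long-term calls were 11 with no filter (9 higher, 2 lower), 5 after thinning (2 higher, 3 lower) and 3 without doublets (2 higher, 1 lower). They were 4 with a term for number 1, 4 with depth as covariate and 6 without the libraries numbered 1, all higher. Acute calls were 4 with DESeq2, 1 with upper-quartile factors, 26 with no filter, 1 with a stricter filter, 15 with a term for number 1, 7 with the span trend removed, 9 without doublets, 2 in the stricter gate, 7 in the purer gate, 4 with only the 2 groups and 47 without the libraries numbered 1. Long-term against acute gave 21 with no filter and 13 without those libraries. The cause was not tested, beyond the fewer genes or mice in some fits. Leaving out 1 mouse gave 7 to 299 in ageing (named in the report), 0 to 3 for long-term restriction (0 without old ad libitum 4, long-term 3 or 4; 1 without old ad libitum 1 or 2 or long-term 2), 0 to 4 for acute restriction (4 without young 1, 3 without young 2, 2 without long-term 3, 1 without acute 1 or 2) and 0 to 0 between the 2. Alternatives chosen after seeing the data were those without the libraries numbered 1.

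For the class differences against oligodendrocytes, ageing gave 25 after thinning and long-term against acute 0 in the stricter gate. Without the libraries numbered 1 long-term restriction gave 17 and long-term against acute 8. Against astrocytes the stricter gate gave 2 in ageing and 2 under long-term restriction, thinning gave 2 under acute restriction, and without the libraries numbered 1 the counts were 2, 2, 1 and 9 in ageing, long-term, acute and long-term against acute. Without 1 mouse at a time the counts against oligodendrocytes were 8 to 22, 3 to 11, 17 to 56 and 0 to 4 in the same order, lowest in ageing without old ad libitum 1 or 4, in long-term restriction without long-term 4 and in acute restriction without acute 3. Against astrocytes they were 0 to 3, 0 to 2, 1 to 8 and 0 to 1, with 8 without old ad libitum 4 and 1 without old ad libitum 1 or acute 2.

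Replicate numbers recur across groups, but the labels do not say what they mark, and in 4 libraries, none of them numbered 1, the file name carries another number than the label. Of 16 pairs of the same label number, 12 correlated above 0.1 over 5000 genes (-0.185 to 0.438), all of those numbered 1 among them (0.216 to 0.438), and 10 of 13 libraries correlated best with their own number, a hint from the data. Since 4 pairs did not reach 0.1, the label numbers were not taken as pairing. By the numbers of the file names the pairs did not all reach 0.1 either (lowest -0.104, young mouse 2 with long-term mouse 3), and no block was fitted on those. With a replicate block there were 506 ageing calls (43.5% higher), 2 long-term, 7 acute and 0 between the restrictions, and all 103 ageing calls were among the 506.

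The 26 named changes kept their direction in all 697 alternatives, and 137 of those missed the threshold, most with depth as covariate (24 of 26), without old ad libitum mouse 4 (20) and with the span trend removed (19). The 24 ageing genes were named for values that did not overlap, and those of the 2 restriction genes did not either. Fits that left out mice could thus hardly reverse them, and nothing is read from the kept direction. Precision is limited by 122 to 334 precursors per mouse. The smallest exact permutation p is 0.1 for 3 mice against 3 and 0.0286 for 3 against 4.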
